A study of Rattus norvegicus with 33 samples.

Results

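Plasma microRNAs (miRNAs) were followed into the late phase of acetaminophen (APAP) liver injury in the rat, 12 h and 24 h after dosing, by small RNA sequencing. The comparisons were 12 h against vehicle, 24 h against vehicle and 24 h against 12 h, which use 3 of the 33 samples of the series. A miRNA was included when at least 1 of these 3 libraries held at least 20 reads, which 124 of 350 listed miRNAs did. Just inside this limit lay miR-340-5p, with 2 reads in vehicle, 15 at 12 h and 21 at 24 h, and just outside it miR-17-5p, with 19 reads in vehicle, 8 at 12 h and 15 at 24 h. The animals were male Sprague-Dawley rats, 6 weeks old and fasted for 12 h, with 5 rats in each group. Those of the APAP groups received 1500 mg/kg by the intragastric route, suspended in 0.5% carboxymethylcellulose at 10 mL/kg, and were sampled at 12 h or 24 h. The vehicle group, labelled 0 h, received carboxymethylcellulose alone. Each group is represented by 1 library, and the labels do not say whether that library came from 1 rat or from a pool of the 5.

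A toxic dose of acetaminophen is converted by cytochrome P450 enzymes in hepatocytes to a reactive quinone imine that depletes glutathione and kills cells around the central veins. Dying hepatocytes release their contents, including miRNAs held in protein complexes and vesicles, and miR-122, the most abundant hepatocyte miRNA, is a widely used plasma indicator of this injury. Plasma otherwise carries miRNAs from blood cells, endothelium and other tissues, such as miR-486 and miR-451 of red cells and the let-7 family, which most cell types make.

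The miRNAs on which the results turn are printed here 5′ to 3′ with the seed, bases 2 to 8, in capitals. The sequences are RefSeq's for build GRCr8, in which 108 of the 124 miRNAs were matched by name. The first 7 are liver-enriched miRNAs with large late shares, their near-copies miR-215 and miR-101a-3p, and miR-22-3p and miR-378a-3p, which stood out at 24 h.
miR-122-5p: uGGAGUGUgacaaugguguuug
miR-192-5p: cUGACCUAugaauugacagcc
miR-215: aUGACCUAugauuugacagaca
miR-101b-3p: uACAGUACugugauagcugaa
miR-101a-3p: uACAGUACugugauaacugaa
miR-22-3p: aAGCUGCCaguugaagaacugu
miR-378a-3p: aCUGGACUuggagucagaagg

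Positions are counted from 1 at the 5′ end. miR-192-5p and miR-215 share the seed UGACCUA and differ by C1A, A12U and C20A, with miR-192-5p given first, and miR-215 has 1 more base at its 3′ end. miR-101a-3p and miR-101b-3p differ by A16G. The let-7 family is shown because its 8 measured members share the seed GAGGUAG and had unlike courses.
let-7a-5p: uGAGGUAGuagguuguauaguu
let-7b-5p: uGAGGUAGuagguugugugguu
let-7c-5p: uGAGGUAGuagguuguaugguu
let-7d-5p: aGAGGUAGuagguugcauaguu
let-7f-5p: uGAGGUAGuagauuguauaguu
let-7g-5p: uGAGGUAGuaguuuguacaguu
let-7i-5p: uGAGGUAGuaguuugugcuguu
miR-98-5p: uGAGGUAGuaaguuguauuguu

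let-7c-5p differs from let-7a-5p by A19G, let-7b-5p from let-7c-5p by A17G, let-7f-5p from let-7a-5p by G12A, and let-7i-5p from let-7g-5p by A17G and A19U. Reads of such near-identical miRNAs can be exchanged by a sequencing error or by the counting, so the split between them is uncertain. A further set of pairs with a common seed is printed because the members of each pair had unlike values at 24 h or appeared there together.
miR-146a-5p: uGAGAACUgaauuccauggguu
miR-146b-5p: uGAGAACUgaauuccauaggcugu
miR-148a-3p: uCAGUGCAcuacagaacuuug
miR-152-3p: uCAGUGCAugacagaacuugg
miR-103-3p: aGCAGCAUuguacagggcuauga
miR-107-3p: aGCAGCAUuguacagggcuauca
miR-193a-3p: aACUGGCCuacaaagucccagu
miR-193b-3p: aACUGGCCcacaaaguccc

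The vehicle, 12 h and 24 h libraries held 47122, 288240 and 240352 miRNA reads, and 237, 257 and 247 of the listed miRNAs had at least 1 read. A share of 0.00637%, 0.00104% and 0.00125% is the upper limit that 0 reads allows in these libraries, counted as 3 reads. Reads were compared after TMM scaling, which sets the typical miRNA equal between libraries, and by total counts, that is, by share of reads. TMM put log2 ratios 2.40 above total counts for 12 h against vehicle and 1.53 above for 24 h against vehicle, and 0.87 below for 24 h against 12 h. A miRNA was called higher or lower when its ratio was at least 2 or at most 0.5 and its exact 95% interval excluded 1. These intervals cover counting error only, and with 1 library per group no difference has a replicate check or a p-value. The vehicle library of the thioacetamide experiment, 1 of 2 other carboxymethylcellulose vehicles of the series, differed by this rule from the APAP vehicle in 13.7% of the 124 miRNAs with TMM. For the vehicle library of the 4,4'-methylenedianiline experiment the share was 7.26%. In plasma, more release of a miRNA by 1 tissue and less RNA from all others cannot be told apart from such libraries.

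At 12 h plasma was dominated by 1 hepatocyte miRNA, and at 24 h by a broader set. miR-122-5p (chr18:61028831-61028852, plus strand) made up 2.70% of reads in vehicle, 65.5% at 12 h and 17.1% at 24 h. miR-148a-3p, made in liver and many other tissues, had 29.7% in vehicle, 17.1% at 12 h and 25.7% at 24 h. miR-192-5p, a miRNA of liver and gut epithelium (chr1:212994232-212994252, plus strand), had 1.03% in vehicle, 5.72% at 12 h and 23.7% at 24 h. These 3 miRNAs together held 33.4% of reads in vehicle, 88.3% at 12 h and 66.5% at 24 h. Outside them, miR-22-3p came to 0.189% in vehicle, 0.140% at 12 h and 8.17% at 24 h, and miR-378a-3p to 0.662% in vehicle, 0.727% at 12 h and 5.29% at 24 h. The let-7 family had 16.7% of reads in vehicle, 2.98% at 12 h and 1.91% at 24 h, less in each later library. By share of reads the vehicle library was the highest of the 3 for 77 of the 124 miRNAs, the 12 h library for 3 and the 24 h library for 44. With TMM these numbers were 47, 25 and 52, so the order depends on the scaling.

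**Figure D1:**
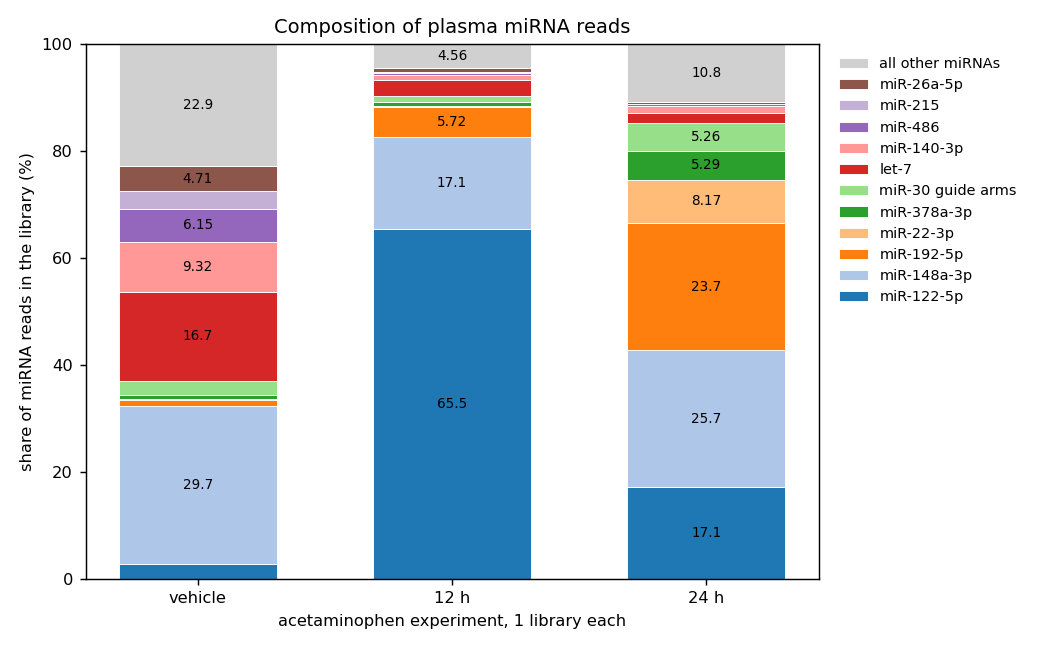
Share of miRNA reads (%) held by the leading miRNAs and groups in the vehicle, 12 h and 24 h libraries, 1 library per bar. miR-122-5p fills 65.5% of the 12 h bar, whereas in the 24 h bar miR-22-3p and miR-378a-3p take up 8.17% and 5.29% beside 3 larger segments.

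Comparing 12 h with vehicle asks how plasma miRNAs stood 12 h after dosing. Under both scalings 7 of 124 miRNAs (5.65%) were higher and 27 (21.8%) were lower at 12 h. With TMM alone 31 (25%) were higher and 27 (21.8%) lower, and by total counts 7 (5.65%) were higher and 86 (69.4%) lower, so the scaling sets how many are called in each direction. The median log2 ratio over all 124 was -0.00 with TMM and -2.40 by total counts. For 5 miRNAs, let-7b-5p, miR-28-3p, miR-29a-3p, miR-30e-3p and miR-361-3p, the call was higher with TMM and lower by total counts. The 7 that were higher under both were miR-122-5p, miR-192-5p, miR-101b-3p, miR-200a-3p, miR-429, miR-3559-5p and miR-3559-3p. Of these, 4 had fewer than 20 reads in vehicle and entered through the APAP libraries.

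At 24 h more miRNAs stood above vehicle. Under both scalings 24 of 124 (19.4%) were higher and 38 (30.6%) lower, with TMM 54 (43.5%) were higher and 38 (30.6%) lower, and by total counts 24 (19.4%) were higher and 64 (51.6%) lower. The median log2 ratio over all 124 was 0.42 with TMM and -1.11 by total counts. The comparison uses the same vehicle library as the one at 12 h, so the pair of comparisons is not independent. Of the 124 miRNAs, 36 had fewer than 20 reads in vehicle, 23 of them reaching 20 reads only at 24 h, and these could enter only by being seen more often after APAP. Among the 88 with at least 20 reads in vehicle, 9 were higher and 38 lower at 24 h under both scalings, and at 12 h 3 were higher and 27 lower.

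The liver-enriched list held 14 miRNAs, of which 12 were measured, and together they made up 36.9% of reads in vehicle, 88.8% at 12 h and 68.5% at 24 h. miR-122-5p had 1274 reads in vehicle, 188707 at 12 h and 41096 at 24 h, so its level peaked at 12 h and was still well above vehicle at 24 h. That is a ratio to vehicle of 127 at 12 h (95% interval 121 to 135) with TMM and 24.2 by total counts, and of 18.2 at 24 h (17.2 to 19.3) with TMM and 6.32 by total counts. miR-192-5p had 486 reads in vehicle, 16482 at 12 h and 56905 at 24 h and was highest at 24 h. Its ratio to vehicle was 29.2 at 12 h (26.7 to 32.0) and 66.1 at 24 h (60.5 to 72.5) with TMM, and 5.54 and 23.0 by total counts. miR-101b-3p, a liver-rich miRNA, followed the same course with 28 reads in vehicle, 762 at 12 h and 3485 at 24 h. It stood 23.4-fold above vehicle at 12 h (16.1 to 35.5) and 70.3-fold above at 24 h (48.6 to 106) with TMM, and 4.45-fold and 24.4-fold by total counts. miR-194-5p, which is transcribed with miR-192 from chromosome 1 and has a further copy beside miR-215 on chromosome 13, had 15 reads in vehicle, 173 at 12 h and 630 at 24 h. Its ratio was 9.93 at 12 h and 23.7 at 24 h with TMM, and by total counts 1.89 at 12 h, short of the limit, and 8.23 at 24 h.

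miR-215 went the opposite way to miR-192-5p although they share a seed. It had 1529 reads in vehicle, 520 at 12 h and 231 at 24 h and was highest in vehicle and lowest at 24 h. With TMM it stood 3.42-fold below vehicle at 12 h (3.09 to 3.78) and 11.7-fold below it at 24 h (10.2 to 13.5), and by total counts 18.0-fold and 33.8-fold below. It lies on chromosome 13 (chr13:99383003-99383024, plus strand) next to a miR-194 copy (chr13:99382730-99382751). The same mature miR-194-5p comes from either copy, so its reads cannot be assigned to 1 locus. miR-148a-3p, with 13993 reads in vehicle, 49247 at 12 h and 61762 at 24 h, had TMM ratios to vehicle of 3.03 at 12 h and 2.49 at 24 h, and total-count ratios of 0.575 and 0.865, on either side of 1.

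The members of the list with 0 reads in vehicle, given next, reached 20 reads in the 24 h library alone. The 20-read rule itself thus fixed that they had more reads there, and their values are a description. miR-122-3p, the passenger strand of the miR-122 hairpin, had 0 reads in vehicle, 17 at 12 h and 94 at 24 h, which, with 3 reads in place of 0, is at least 17.7-fold above vehicle at 24 h with TMM and at least 6.14-fold by total counts. These limits, as those below for 0 reads, leave out the counting error of the other library, and with it the exact intervals for miR-122-3p begin at 14.1 and 4.90. miR-192-3p had 0 reads in vehicle, 11 at 12 h and 38 at 24 h, and was at least 7.15-fold above vehicle at 24 h with TMM and at least 2.48-fold by total counts. miR-193a-3p had 0 reads in vehicle, 1 at 12 h and 48 at 24 h, seen at 24 h but hardly at 12 h, and was at least 9.04-fold above vehicle at 24 h with TMM and at least 3.14-fold by total counts. The exact intervals begin at 5.54 and 1.92 for miR-192-3p and at 7.07 and 2.45 for miR-193a-3p. Over the 12 measured members, 3 were higher and 1 lower at 12 h under both scalings, and 7 were higher and 1 lower at 24 h, beside 5.65% and 21.8% of all 124 at 12 h and 19.4% and 30.6% at 24 h. Only 6 of the 12 had 20 reads in vehicle, and of those 3 were higher and 1 lower at either time. For the list the median log2 ratio was 2.43 at 12 h and 4.35 at 24 h with TMM, and 0.04 and 2.83 by total counts. With 3 reads in place of 0 in 3 members, the medians were 1.72 and 3.41 with TMM and -0.68 and 1.88 by total counts, so the sign at 12 h by total counts depends on that choice.

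**Figure D2:**
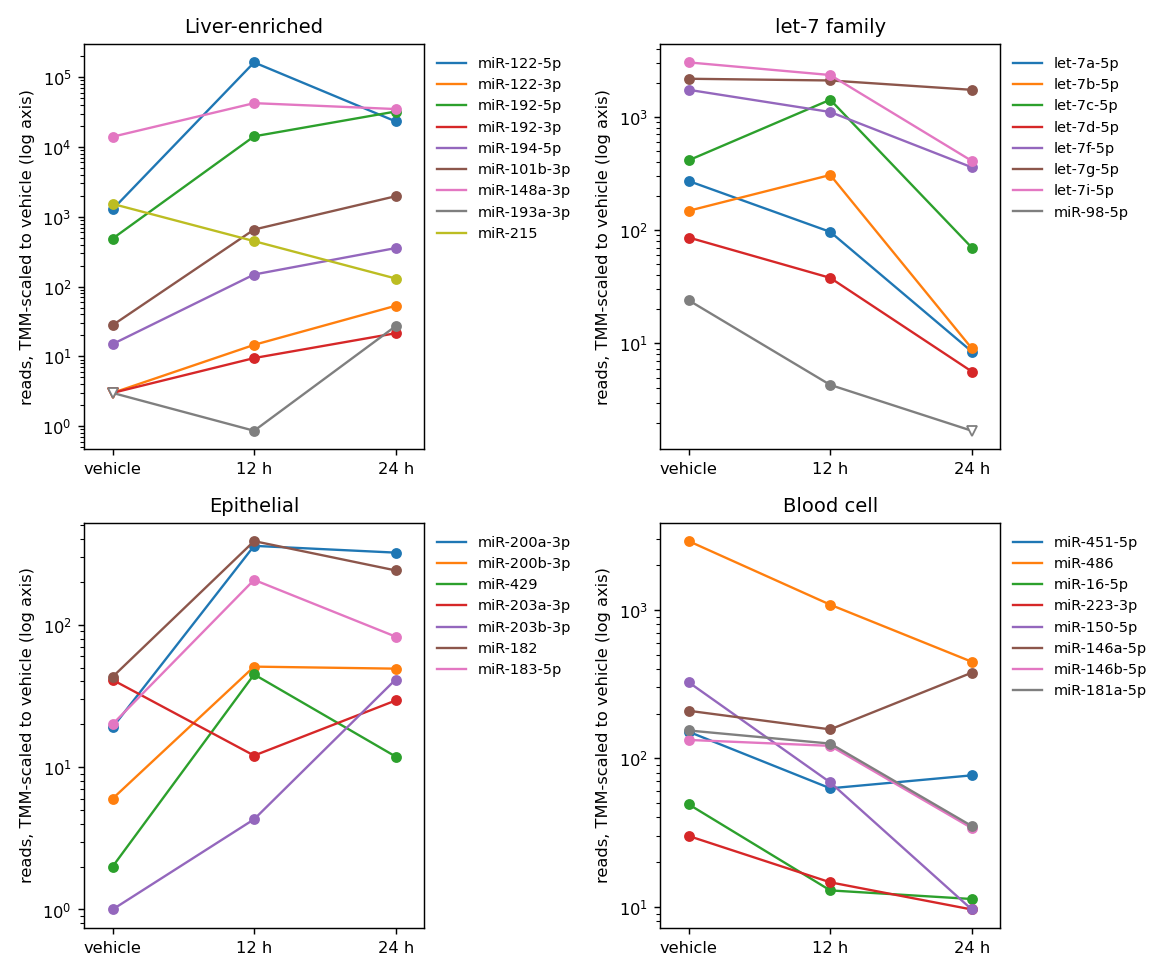
Reads of single miRNAs scaled by TMM to the vehicle library (log axis) in the vehicle, 12 h and 24 h libraries, in 4 panels for the liver-enriched, let-7, epithelial and blood cell lists. Points are 1 library each, lines join the same miRNA and open triangles mark 0 reads drawn at the 3-read limit. In the liver panel miR-122-5p is highest at 12 h, most others are highest at 24 h and miR-215 is lowest there, and in the let-7 panel let-7g-5p stays nearly level while let-7b-5p and let-7c-5p are highest at 12 h and low at 24 h.

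The miRNAs that set the 24 h library apart were led by miR-22-3p, a widely made miRNA that targets metabolic and epigenetic regulators. It had 89 reads in vehicle, 404 at 12 h and 19648 at 24 h. By share it lay a little below vehicle at 12 h and far above it at 24 h. The ratio to vehicle at 24 h was 125 with TMM (101 to 155) and 43.3 by total counts, against 3.91 (3.10 to 4.97) and 0.742 at 12 h. miR-378a-3p, encoded within the gene of the metabolic coactivator PGC-1β, had 312 reads in vehicle, 2096 at 12 h and 12721 at 24 h. At 24 h it was 23.0-fold above vehicle with TMM (20.6 to 25.9) and 7.99-fold by total counts, and at 12 h 5.78-fold and 1.10-fold.

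miR-378b had 0 reads in vehicle, 3 at 12 h and 34 at 24 h and was at least 6.40-fold above vehicle at 24 h with TMM and at least 2.22-fold by total counts, with exact intervals from 4.93 and 1.71. miR-193b-3p, the relative of miR-193a-3p with the same seed ACUGGCC, had 0 reads in vehicle, 0 at 12 h and 29 at 24 h. The thioacetamide vehicle, with 33064 reads in all, held 2 reads of miR-193a-3p and 2 of miR-193b-3p, each a share of 0.00605%. At 24 h their shares were 0.0200% and 0.0121%. miR-29a-3p, a repressor of collagen transcripts, had 54 reads in vehicle, 135 at 12 h and 1236 at 24 h and was 12.9-fold above vehicle at 24 h with TMM (9.84 to 17.3) and 4.49-fold by total counts. At 12 h its ratio was 2.15 with TMM and 0.409 by total counts, so no direction can be given there. With the thioacetamide or 4,4'-methylenedianiline vehicle in place of the APAP vehicle, miR-29a-3p was not called at 12 h, at TMM ratios of 1.59 and 1.05. miR-3559-5p, with 2 reads in vehicle, 49 at 12 h and 472 at 24 h, was 21.1-fold above vehicle at 12 h (5.53 to 179) and 133-fold above at 24 h (36.7 to 1103.9) with TMM, with wide intervals because vehicle held 2 reads.

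In the list of metabolic, stress and damage miRNAs, 5 of 10 were measured and together they had 2.30% of reads in vehicle, 1.29% at 12 h and 14.6% at 24 h. Under both scalings 4 of the 5 were higher at 24 h than in vehicle and none at 12 h, beside 19.4% and 5.65% of all 124, and 2 of the 4 had under 20 reads in vehicle. The remaining one, miR-21-5p, induced in many kinds of tissue injury, had 662 reads in vehicle, 1168 at 12 h and 2479 at 24 h. Its TMM ratio was 2.12 at 24 h and its total-count ratio 0.734, on either side of 1. The list had a median log2 ratio of 4.52 with TMM and 3.00 by total counts at 24 h, and 1.96 and -0.44 at 12 h. With 3 reads in place of 0 the TMM medians were 3.25 at 24 h and 1.78 at 12 h.

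In the miR-30 family, whose guide strands share the seed GUAAACA in the 3 members matched to a sequence, all 5 listed guides were measured and together had 2.75% of reads in vehicle, 1.16% at 12 h and 5.26% at 24 h. miR-30a-5p had 630 reads in vehicle, 1406 at 12 h and 6388 at 24 h and miR-30d-5p had 459 reads in vehicle, 1650 at 12 h and 5297 at 24 h, both highest at 24 h. miR-30b-5p had 34 reads in vehicle, 68 at 12 h and 525 at 24 h, the steepest course of the family. At 24 h miR-30d-5p and miR-30b-5p were higher than vehicle under both scalings, by 6.52-fold and 8.72-fold with TMM and 2.26-fold and 3.03-fold by total counts. miR-30a-5p came to 5.73-fold with TMM and 1.99-fold by total counts, just under the limit. miR-30c-5p and miR-30e-5p had TMM ratios of 1.281 and 1.99 at 24 h and were not called higher. By total counts miR-30c-5p was called lower at 24 h, with 0.278% of reads in vehicle and 0.124% at 24 h. Under both scalings 2 of the 5 guides were higher at 24 h and none lower, beside 19.4% and 30.6% of all 124. At 12 h none of the 5 was called in the same direction under both scalings, beside 5.65% higher and 21.8% lower of all 124. The passenger arms miR-30a-3p and miR-30e-3p had TMM ratios at 24 h of 3.92 and 1.20 and total-count ratios of 1.36 and 0.417.

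Epithelial miRNAs made up a small share of reads, 0.289% in vehicle, 0.436% at 12 h and 0.580% at 24 h for 12 listed miRNAs, of which 7 were measured. miR-200a-3p, which with its family represses the transcription factors Zeb1 and Zeb2 and so keeps epithelial identity, had 19 reads in vehicle, 416 at 12 h and 568 at 24 h. It was 18.8-fold above vehicle at 12 h (11.9 to 31.6) and 16.9-fold above at 24 h (10.7 to 28.3) with TMM, and 3.58-fold and 5.86-fold by total counts. miR-429, from the same cluster as miR-200a in mammals, had 2 reads in vehicle, 52 at 12 h and 21 at 24 h and was highest at 12 h. Its TMM ratio was 22.4 at 12 h (5.89 to 190) and 5.93 at 24 h (1.45 to 52.2), and with the thioacetamide vehicle, which had 5 reads, the 24 h ratio was 1.70 and not called, nor was it against the 4,4'-methylenedianiline vehicle, which had 0 reads. miR-200b-3p had 6 reads in vehicle, 59 at 12 h and 87 at 24 h, 8.19-fold above vehicle at 24 h with TMM and 2.84-fold by total counts.

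The neighbouring miR-182 and miR-183-5p (chromosome 4, minus strand) are transcribed together in sensory and other epithelia. miR-182 had 43 reads in vehicle, 449 at 12 h and 426 at 24 h. miR-183-5p had 20 reads in vehicle, 240 at 12 h and 146 at 24 h. They were above vehicle with TMM only, by 8.99-fold and 10.3-fold at 12 h and 5.60-fold and 4.12-fold at 24 h, whereas total counts gave 12 h ratios of 1.71 and 1.96 and 24 h ratios of 1.94 and 1.43. miR-203a-3p, a miRNA of stratified epithelium, had 41 reads in vehicle, 14 at 12 h and 52 at 24 h and was 3.40-fold lower at 12 h with TMM and 17.9-fold lower by total counts. miR-203b-3p had 1 read in vehicle, 5 at 12 h and 73 at 24 h, with a TMM ratio to vehicle of 41.2 at 24 h and an interval of 7.17 to 1650.7. Over the 7 members 2 were higher and 1 lower at 12 h under both scalings, and 3 were higher and none lower at 24 h, beside 5.65% and 21.8% of all 124 at 12 h and 19.4% and 30.6% at 24 h. All the members called higher had fewer than 20 reads in vehicle.

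let-7 miRNAs, which restrain growth-related transcripts and are widely made, separated by member. let-7g-5p had 2165 reads in vehicle, 2429 at 12 h and 3060 at 24 h, and its TMM ratio to vehicle was 0.966 at 12 h and 0.798 at 24 h. By total counts it was 5.45-fold lower at 12 h and 3.61-fold lower at 24 h. let-7i-5p had 3018 reads in vehicle, 2713 at 12 h and 722 at 24 h and was 7.40-fold lower at 24 h with TMM (6.82 to 8.04) and 21.3-fold lower by total counts. let-7f-5p had 1729 reads in vehicle, 1280 at 12 h and 634 at 24 h, 4.83-fold lower at 24 h with TMM and 13.9-fold lower by total counts. The 24 h library was thus the lowest for both, whereas let-7g-5p had ratios near 1 with TMM, though not by total counts. With TMM the fall of let-7f-5p depends on the vehicle library. In the thioacetamide vehicle it had 255 reads, a share of 0.771% against 3.67% in the APAP vehicle. Against that library let-7f-5p was not called at 24 h with TMM. Its share at 24 h, 0.264%, lay below that of both vehicles.

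The clustered let-7c-5p and let-7b-5p (chr7:118683636-118683657 and chr7:118684044-118684065, plus strand) had a course of their own. let-7c-5p, which also has a copy on chromosome 11, had 413 reads in vehicle, 1643 at 12 h and 124 at 24 h, and let-7b-5p had 148 reads in vehicle, 356 at 12 h and 16 at 24 h. With TMM let-7c-5p was 3.42-fold above vehicle at 12 h (3.07 to 3.82) and 5.90-fold below at 24 h (4.81 to 7.27), and let-7b-5p was 2.07-fold above (1.70 to 2.53) and 16.4-fold below (9.76 to 29.4). By total counts the 12 h ratios were 0.650 and 0.393, so the direction at 12 h depends on the scaling, while at 24 h they were 17.0-fold and 47.2-fold below vehicle. With the thioacetamide and 4,4'-methylenedianiline vehicles the 12 h TMM ratios were 1.72 and 1.75 for let-7c-5p and 1.49 and 1.38 for let-7b-5p, and none was called. let-7a-5p had 271 reads in vehicle, 112 at 12 h and 15 at 24 h, and TMM put it 2.81-fold below vehicle at 12 h and 32.0-fold below at 24 h. let-7d-5p had 86 reads in vehicle, 44 at 12 h and 10 at 24 h, with TMM 2.27-fold below vehicle at 12 h and 15.2-fold below at 24 h. miR-98-5p, a let-7 by seed, had 24 reads in vehicle, 5 at 12 h and 0 at 24 h, with 3 reads in place of 0 at least 14.2-fold below vehicle at 24 h with TMM and at least 40.8-fold by total counts, and by the exact intervals 10.7-fold and 30.7-fold or more. Under both scalings 3 of the 8 measured members were lower at 12 h and 7 of 8 at 24 h, beside 21.8% and 30.6% of all 124, and none was higher. Against the thioacetamide vehicle none of those 3 was called at 12 h, with TMM ratios of 0.647 for let-7a-5p, 1.04 for let-7d-5p and 0.438 for miR-98-5p. Of the 7 lower at 24 h, let-7f-5p was not called against that vehicle with TMM. With TMM the median of the log2 ratios of these 8 was -0.51 at 12 h and -3.38 at 24 h, and by total counts -2.91 and -4.90.

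Ratios of a pair of miRNAs within 1 library need no scaling. The miR-122-5p to miR-192-5p ratio was 2.62 in vehicle, 11.4 at 12 h and 0.722 at 24 h, with a 24 h interval of 0.713 to 0.731. The order of these 2 miRNAs was thus turned round between 12 h and 24 h. The miR-192-5p to miR-215 ratio was 0.318 in vehicle, 31.7 at 12 h and 246 at 24 h, higher at each later time, while miR-192-5p to miR-194-5p was 32.4 (19.4 to 58.3) in vehicle, 95.3 (82.0 to 111) at 12 h and 90.3 (83.5 to 97.9) at 24 h, so that at 12 h and 24 h the intervals overlapped. Per read of miR-101a-3p there were 1.08 reads of miR-101b-3p in vehicle, 13.6 at 12 h and 18.1 at 24 h. let-7c-5p to let-7g-5p was 0.191 in vehicle, 0.676 at 12 h and 0.0405 at 24 h, highest of these 3 libraries at 12 h. let-7i-5p to let-7g-5p was 1.39 in vehicle, 1.12 at 12 h and 0.236 at 24 h. In the 6 h APAP library, outside these comparisons, let-7c-5p to let-7g-5p was 0.961 and miR-122-5p to miR-192-5p 16.3, both above their 12 h values. miR-451-5p to miR-23a-3p, a ratio used as a sign of red cell lysis, was 0.280 (0.232 to 0.336) in vehicle, 0.248 (0.189 to 0.322) at 12 h and 0.223 (0.183 to 0.268) at 24 h, with overlapping intervals.

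**Figure D3:**
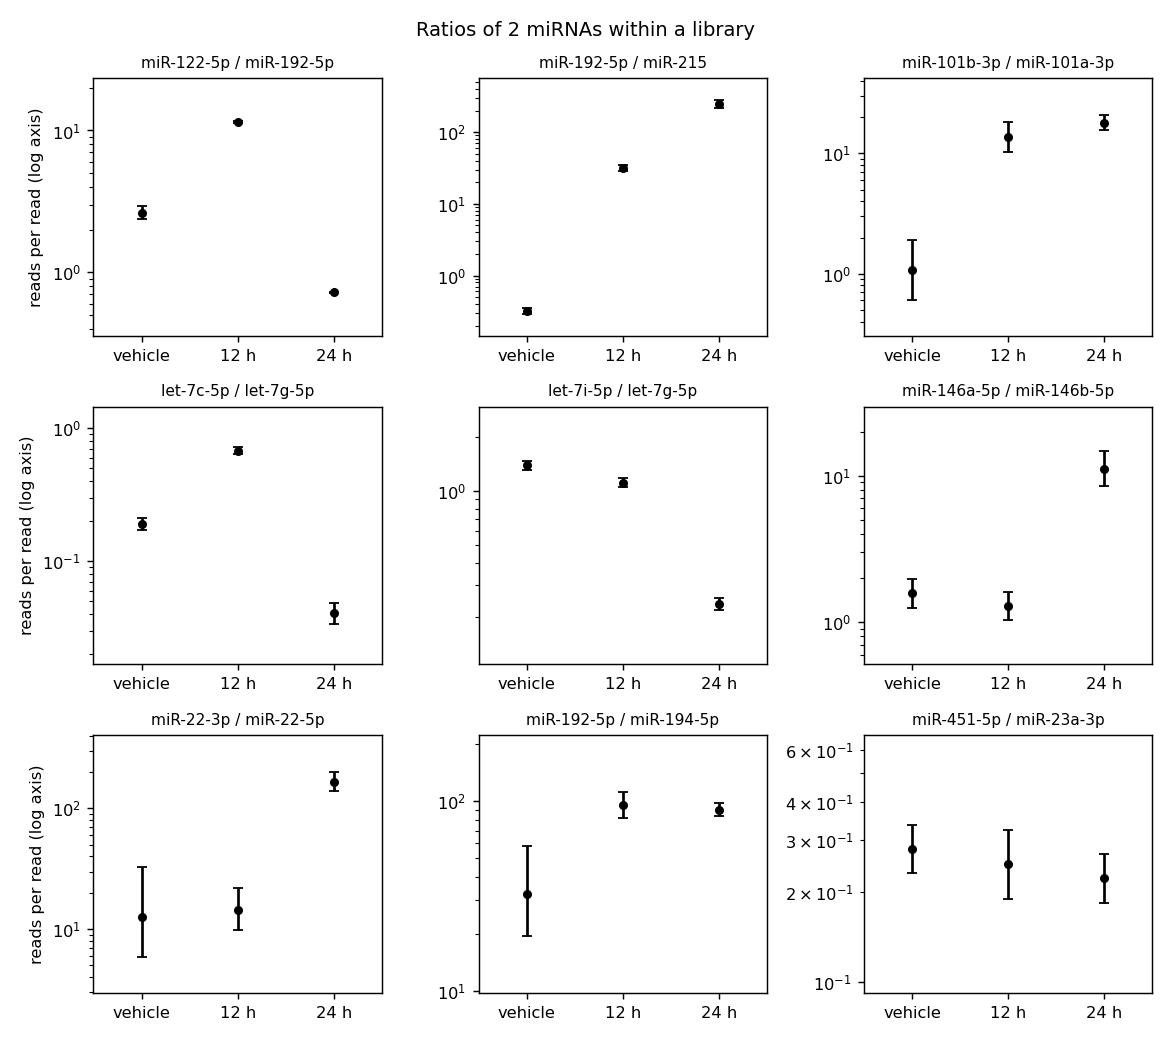
Reads of the first miRNA per read of the second (log axis) in the vehicle, 12 h and 24 h libraries, for 9 pairs, with points for 1 library each and bars for exact 95% counting intervals. The miR-192-5p to miR-215 ratio is 246 at 24 h. Of these 3 libraries the miR-122-5p to miR-192-5p ratio is highest at 12 h, and the miR-451-5p to miR-23a-3p ratio stays between 0.223 and 0.280.

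Red cell miRNAs held less of the reads after APAP. Their list, of which 3 of 8 were measured, had 6.62% of reads in vehicle, 0.470% at 12 h and 0.403% at 24 h. miR-486, abundant in erythroid cells, had 2899 reads in vehicle, 1257 at 12 h and 791 at 24 h and was 2.68-fold lower at 12 h and 6.49-fold lower at 24 h with TMM, and 14.1-fold and 18.7-fold lower by total counts. With the thioacetamide and 4,4'-methylenedianiline vehicles its 12 h ratios were 0.522 and 0.701, and neither was called. miR-451-5p, processed by Argonaute 2 without Dicer, had 151 reads in vehicle, 73 at 12 h and 136 at 24 h, 2.40-fold lower at 12 h with TMM and 1.97-fold lower at 24 h, just short of the limit. By total counts it lay 12.7-fold below vehicle at 12 h and 5.66-fold below at 24 h, past the limit at both times. miR-16-5p had 49 reads in vehicle, 15 at 12 h and 20 at 24 h and was lower under both scalings at either time.

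Of 13 leukocyte miRNAs 8 were measured, and the list held 2.03% of reads in vehicle, 0.228% at 12 h and 0.397% at 24 h. miR-150-5p, typical of mature lymphocytes, had 325 reads in vehicle, 80 at 12 h and 17 at 24 h and stood 4.72-fold below vehicle at 12 h (3.69 to 6.11) and 33.8-fold below it at 24 h (20.8 to 58.8) with TMM, and 24.8-fold and 97.5-fold below by total counts. miR-223-3p, of neutrophils and monocytes, had 30 reads in vehicle, 17 at 12 h and 17 at 24 h. miR-181a-5p, of lymphocytes and other cells, had 154 reads in vehicle, 146 at 12 h and 62 at 24 h, 4.40-fold lower at 24 h with TMM. miR-146a-5p, which is induced by NF-κB and dampens its signalling, had 209 reads in vehicle, 182 at 12 h and 668 at 24 h and so was highest in number at 24 h, with a ratio to vehicle of 1.81 with TMM and 0.627 by total counts, neither past the limit. Its relative miR-146b-5p had 133 reads in vehicle, 141 at 12 h and 60 at 24 h, 3.92-fold lower at 24 h with TMM. Per read of miR-146b-5p there were 1.57 reads of miR-146a-5p in vehicle, 1.29 at 12 h and 11.1 at 24 h. Under both scalings 3 of the 8 leukocyte miRNAs were lower at 12 h and 5 of 8 at 24 h, beside 21.8% and 30.6% of all 124, and none was higher.

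Of 7 platelet and endothelial miRNAs 5 were measured, with 2.63% of reads in vehicle, 0.399% at 12 h and 0.554% at 24 h, and 2 were lower under both scalings at each time, beside 21.8% of all 124 at 12 h and 30.6% at 24 h. miR-126a-3p, an endothelial miRNA that supports VEGF signalling, had 360 reads in vehicle, 247 at 12 h and 134 at 24 h and was 4.76-fold lower at 24 h with TMM and 13.7-fold lower by total counts. The other arm, miR-126a-5p, had 25 reads in vehicle, 12 at 12 h and 30 at 24 h, called lower at 24 h by total counts only. At 24 h 1 of the 5, miR-221-3p, was higher with TMM but not by total counts. Of 9 striated muscle miRNAs 2 were measured. miR-1-3p, of heart and skeletal muscle, had 39 reads in vehicle, 40 at 12 h and 8 at 24 h. miR-206-3p, of skeletal muscle, had 23 reads in vehicle, 8 at 12 h and 2 at 24 h. At 24 h miR-1-3p was 8.63-fold lower with TMM (3.98 to 21.4) and 24.9-fold lower by total counts. miR-206-3p, with its 2 reads, was 20.4-fold lower with TMM (5.03 to 178) and 58.7-fold lower by total counts (14.5 to 513). Their shares in the 3 carboxymethylcellulose vehicle libraries ranged from 0.0828% to 0.466% and from 0.0282% to 0.178%, so their vehicle level itself differed between libraries. In the smooth muscle and mesenchymal list 6 of 11 were measured, with 4.24% of reads in vehicle, 0.620% at 12 h and 1.57% at 24 h. Under both scalings 3 were lower at 12 h and 2 at 24 h, beside 21.8% and 30.6% of all 124. At 24 h 2 of the 6, miR-99a-5p and miR-125b-5p, were higher with TMM but not by total counts. Among those called lower, miR-199a-3p, a miRNA of mesenchymal cells, had 163 reads in vehicle, 35 at 12 h and 30 at 24 h. It was 5.41-fold lower at 12 h and 9.62-fold lower at 24 h with TMM.

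miR-140-3p, the strand of the cartilage-rich miR-140 hairpin that leads in plasma, had 4392 reads in vehicle, 2456 at 12 h and 3061 at 24 h, 2.08-fold lower at 12 h and 2.54-fold lower at 24 h with TMM. Its 12 h ratio was 0.0914 by total counts. With the authors' own scaling it was 0.561, short of the limit. miR-26a-5p had 2218 reads in vehicle, 2009 at 12 h and 1010 at 24 h and was 3.89-fold lower at 24 h with TMM. The thioacetamide vehicle held 316 reads of it, a share of 0.956% against 4.71% in the APAP vehicle. Against that library miR-26a-5p was not called at 24 h with TMM. Its share at 24 h, 0.420%, lay below that of both vehicles. miR-375-3p, of pancreatic islets and gut endocrine cells, had 27 reads in vehicle, 140 at 12 h and 134 at 24 h, 4.46-fold above vehicle at 12 h with TMM and 0.848 of it by total counts. miR-128-3p, enriched in brain, had 129 reads in vehicle, 151 at 12 h and 42 at 24 h, 5.44-fold lower at 24 h with TMM and 15.7-fold lower by total counts.

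Setting 24 h against 12 h compares a pair of deeper libraries, and vehicle enters only through the TMM factors and the choice of miRNAs, 9 of which reached 20 reads in vehicle alone. Under both scalings 42 of 124 (33.9%) were higher at 24 h and 14 (11.3%) were lower. Among the 89 with 20 reads at 12 h, 21 were higher and 13 lower. The other 35 held 21 higher and 1 lower, and 23 of these 35 were included through the 24 h library alone. With TMM 42 (33.9%) were higher and 30 (24.2%) lower, and by total counts 59 (47.6%) were higher and 14 (11.3%) lower. The median log2 ratio over all 124 was 0.03 with TMM and 0.90 by total counts. miR-22-3p led, with a ratio of 31.9 (28.9 to 35.3) with TMM and 58.3 by total counts. miR-29a-3p was 6.01-fold higher, miR-3559-5p 6.32-fold, miR-30b-5p 5.07-fold and miR-378a-3p 3.98-fold with TMM. miR-152-3p, from the family of miR-148a, had 602 reads at 24 h and 65 at 12 h and was 6.08-fold higher (4.70 to 7.98), whereas the ratio of miR-148a-3p was 0.823 with TMM and 1.50 by total counts.

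Several miRNAs that were nearly missing at 12 h were counted at 24 h. The 4 given here reached 20 reads in the 24 h library alone, so the 20-read rule itself fixed that they were higher there, and their values are a description. miR-193a-3p had 48 reads at 24 h and 1 at 12 h, a TMM ratio of 31.5 (5.39 to 1269.9). miR-107-3p, which differs from miR-103-3p by G22C near the 3′ end, had 47 reads at 24 h and 1 at 12 h, while miR-103-3p had 92 and 26. miR-339-3p had 91 reads at 24 h and 6 at 12 h, a TMM ratio of 9.95 (4.40 to 27.8). miR-193b-3p, with 29 reads at 24 h and none at 12 h, was, with 3 reads in place of 0, at least 6.34-fold higher with TMM and at least 11.6-fold by total counts, with exact intervals from 4.84 and 8.84.

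On the lower side let-7b-5p was 33.9-fold lower at 24 h than at 12 h (20.6 to 60.0), let-7c-5p 20.2-fold (16.8 to 24.4), let-7a-5p 11.4-fold (6.61 to 21.0) and let-7i-5p 5.73-fold (5.27 to 6.22) with TMM. miR-122-5p was 6.997-fold lower with TMM and 3.83-fold lower by total counts. miR-140-5p had 2 reads at 24 h and 23 at 12 h, and miR-150-5p had 17 and 80. Of the let-7 list 5 of 8 members were lower under both scalings, beside 11.3% of all 124. Of the liver-enriched list 8 of 12 were higher and 1, miR-122-5p, was lower, beside 33.9% and 11.3% of all 124. Only 8 of the 12 had 20 reads at 12 h, and of those 4 were higher and 1 lower. The other 4, miR-122-3p, miR-192-3p, miR-193a-3p and miR-365-3p, were included through the 24 h library alone.

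**Figure D4:**
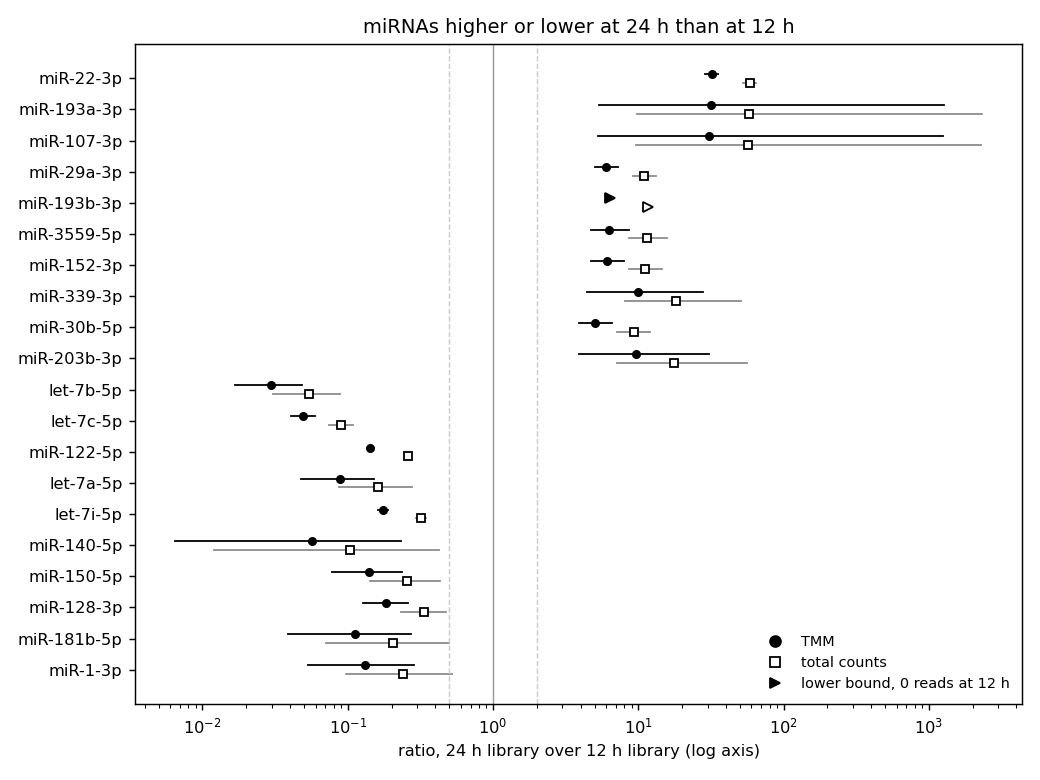
Ratio of the 24 h to the 12 h library (log axis) for the 10 highest and the 10 lowest miRNAs, ranked by the interval bound nearest to 1. Filled points are TMM, open squares total counts, lines are exact 95% counting intervals, triangles are limits with 3 reads in place of 0 at 12 h, and dashed lines mark ratios of 0.5 and 2. miR-22-3p lies at 31.9 with TMM and 58.3 by total counts, and let-7b-5p is the lowest.

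Both strands of a hairpin come from the same precursor, and 15 hairpins had both strands among the 124 miRNAs. With TMM, log2 ratios to vehicle had the same sign for both strands in 12 of 15 hairpins at 12 h and 24 h alike. For 24 h against 12 h they did in 7 of 15. By total counts these numbers were 14, 12 and 9, so they depend on the scaling. Some strands, such as miR-122-3p, miR-192-3p, miR-1843a-3p and miR-339-3p, met the read minimum in the 24 h library alone. Such strands could enter only by having more reads at 24 h than in the other libraries. The read minimum thus favoured a positive sign for them at 24 h, and the numbers of like signs are a description. There were 11100.4 reads of miR-122-5p per read of miR-122-3p at 12 h (6932.8 to 19055.7) and 437 at 24 h (357 to 541). miR-192-5p had 1498.4 reads per read of miR-192-3p at 12 h (837 to 3002.1) and 1497.5 at 24 h (1090.9 to 2116.4). miR-22-3p to miR-22-5p was 12.7 in vehicle, 14.4 at 12 h and 166.5 at 24 h. miR-3559-3p to miR-3559-5p was 4.50 in vehicle, 2.55 at 12 h and 0.377 at 24 h, with the leading strand changed at 24 h. miR-30a-5p to miR-30a-3p was 11.5 in vehicle, 4.92 at 12 h and 16.7 at 24 h, lowest of these 3 libraries at 12 h.

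Members with the same seed lay close together in some families and far apart in others. Log2 TMM ratios lay within 1 of each other in 7 of 16 seed families at 12 h and in 5 of 16 at 24 h. The log2 TMM ratios of miR-192-5p and miR-215 lay 6.64 apart at 12 h and 9.59 apart at 24 h, the widest of 16 seed families at either time, while those of the 8 let-7 members spanned 4.15 and 6.11, the second with miR-98-5p at 0 reads. miR-181a-5p and miR-181b-5p, with log2 ratios of -2.13 and -2.96 at 24 h, and miR-26a-5p and miR-26b-5p, with -1.96 and -1.12, differed by less than 1. miR-26b-5p, which had 112 reads in vehicle, 109 at 12 h and 91 at 24 h, was called lower at 24 h against the APAP vehicle but higher against the thioacetamide vehicle, which held 16 reads of it, at a TMM ratio of 2.31. In the cluster of let-7a-5p, let-7f-5p, let-7d-5p and let-7d-3p on chromosome 17 (plus strand, from position 16320145 to 16322348) the log2 TMM ratios at 24 h were -4.95, -2.27, -3.87 and 0.23, so its members spread widely, as do miR-194-5p and miR-215. let-7a-5p has a further copy on chromosome 8 and let-7f-5p on chromosome X, so their reads cannot be assigned to this cluster alone. Across the 108 miRNAs with a sequence, which share their libraries and depth, Pearson's r of the log2 TMM ratio to vehicle with GC content was -0.02 at 12 h and 0.08 at 24 h. With length it was -0.15 and -0.17, which are given as a description only.

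At 12 h against vehicle the median log2 ratio with TMM was 3.15 for the epithelial, 2.43 for the liver-enriched and 0.77 for the miR-30 guide list, and -1.42 for red cell, -1.15 for smooth muscle and mesenchymal and -0.75 for the miR-17/92 list with its paralogues. By total counts these 12 h medians were, in the same order, 0.76, 0.04 and -1.62, and -3.82, -3.55 and -3.14. In the 24 h library the TMM median came to 2.47 for the epithelial, 4.35 for the liver-enriched and 2.52 for the miR-30 guide list, and to -2.10 for red cell, -0.69 for smooth muscle and mesenchymal and -0.50 for the miR-17/92 list. By total counts these 24 h medians were 0.94, 2.83 and 0.99, and -3.62, -2.22 and -2.02. Only 3 of the 7 epithelial and 6 of the 12 liver-enriched members had 20 reads in vehicle. The others could enter only by having more reads after APAP, which favoured higher medians for these lists. For miR-23, miR-27 and miR-24 the TMM medians at 12 h and 24 h came to -0.20 and -0.35, beside -0.00 and 0.42 for all 124 miRNAs. For 24 h against 12 h the epithelial median was -0.16 with TMM and 0.71 by total counts, and the leukocyte median -1.22 and -0.35. Of the miR-17/92 list 6 of 11 were measured, of miR-23, miR-27 and miR-24 6 of 8, of the miR-30 passenger arms 2 of 6, of miR-29 1 of 3, of the brain list 1 of 8 and of the pancreas, islet and gut list 1 of 4.

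**Figure D5:**
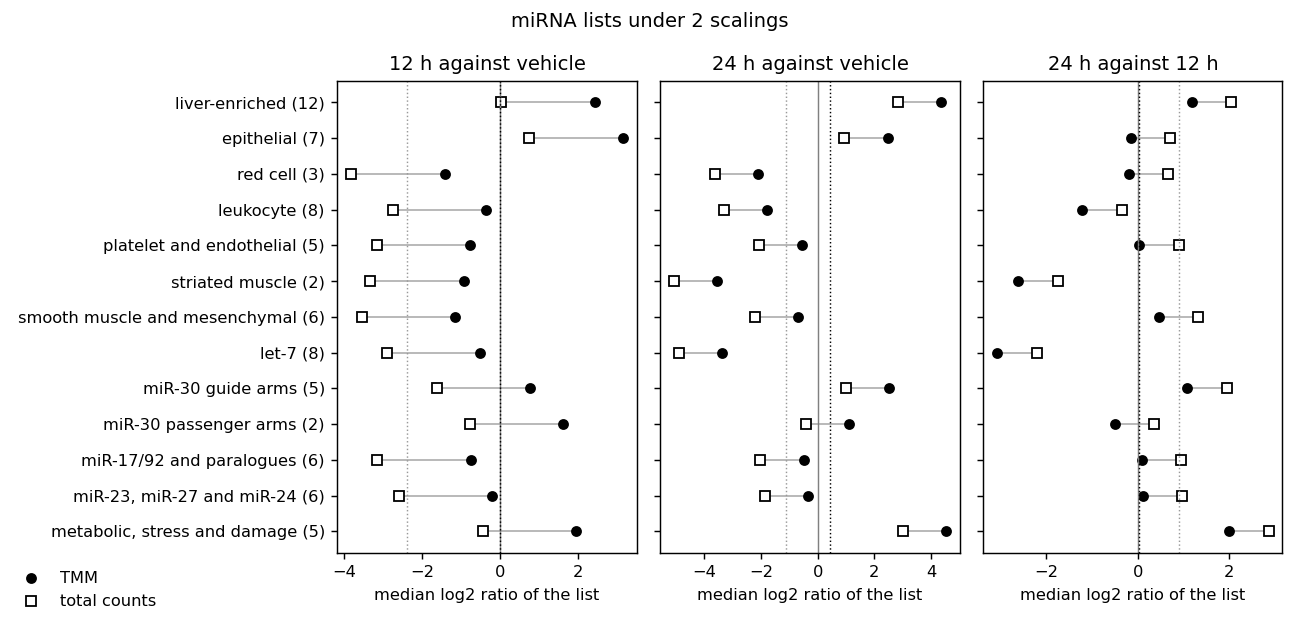
Median log2 ratio of each miRNA list with at least 2 measured members (number measured in parentheses) for 12 h against vehicle, 24 h against vehicle and 24 h against 12 h. Filled points are TMM, open squares total counts, dark and light dotted lines the medians of all 124 miRNAs under TMM and total counts. The liver-enriched list lies at 2.43, 4.35 and 1.17 with TMM and the let-7 list at -0.51, -3.38 and -3.08.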

How the data were processed

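Small RNA was sequenced from 200 µL of EDTA plasma (NEBNext kit, 15 PCR cycles, MiSeq), per the labels' protocols. The authors deposited read counts per mature miRNA. As to counting tool, miRNA release and genome build, these were not given in the sources used here. They also deposited a normalized signal, made with DESeq 1.28.0 per the submitters' processing notes, of which 19.7% of 610 values were off the count divided by 1 factor per library by over 0.5 read, so it served for 1 alternative scaling only. TMM factors (edgeR 4.0.16, R 4.3.3) came from the 5 APAP libraries and the 130 miRNAs with at least 20 reads in any of them. Ratios have exact 95% Clopper-Pearson intervals (scipy 1.17.1), checked on simulated data. Log2 ratios used a pseudocount of 0.5 read. The text names the 10 highest and 10 lowest miRNAs per comparison among those called under both scalings, ranked by the bound nearest to 1, the 10 largest shares per library, and members of 16 lists. The miRNAs and lists were chosen with earlier results of these data known, and most within-library pairs after their values were seen. DESeq2 1.42.0 size factors were an alternative.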

Additional observations from a re-analysis of the deposited data

Results flagged for a closer look

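For 5 miRNAs the ratios to the shared vehicle library lay on opposite sides of 1 at 24 h and at 12 h, each past the limit of size. The difference between the times was not tested, since each time is 1 library. let-7b-5p had a TMM ratio of 0.0611 at 24 h and 2.07 at 12 h. let-7c-5p had a TMM ratio of 0.170 at 24 h and 3.42 at 12 h. By total counts miR-28-3p had a ratio of 2.74 at 24 h and 0.392 at 12 h, miR-29a-3p 4.49 and 0.409, and miR-30b-5p 3.03 and 0.327. With the other scaling none of these pairs lay past the limit on opposite sides.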

How the results depend on the processing

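No paired analysis was possible because each group is 1 library. Of 68 alternative counts of called miRNAs, 50 stayed within 1.5 times the reported count. Of 342 alternatives to the 57 ratios named by rank, 111 moved beyond their counting interval. None turned direction, but these ratios were chosen as called alike by TMM and total counts, and 5 miRNAs called higher at 12 h with TMM were called lower by total counts. For 12 h against vehicle, total counts called 7 higher and 86 lower, total counts without miR-122-5p 19 and 53, and the 4-fold limit 19 and 7, while the authors' scaling called 17 lower and a minimum of 50 reads 15 lower. For 24 h against vehicle, total counts called 24 higher and 64 lower, total counts without miR-122-5p 30 and 61, and minimums of 50 reads and 1 read 22 and 58 lower. For 24 h against 12 h, total counts called 14 lower, total counts without miR-122-5p 25 higher, and the 4-fold limit 14 higher and 15 lower. Of 234 alternatives to 39 list medians, 4 turned the sign of a median log2 ratio of at least 1 in size with TMM. They were the miR-30 passenger arms by total counts (-0.78 at 12 h, -0.42 at 24 h) and at 24 h without miR-122-5p (-0.18), and the metabolic, stress and damage list at 12 h by total counts (-0.44). Smaller medians changed sign as well. Examples by total counts are the miR-30 guide arms at 12 h (-1.62) and, for 24 h against 12 h, the epithelial (0.71) and red cell (0.67) lists. Stricter limits call fewer by construction, and for the other settings the cause was not tested. With the thioacetamide or 4,4'-methylenedianiline vehicle, 40 and 38 of the 58 calls at 12 h were kept and 18 and 20 were not, and 78 and 73 of the 92 at 24 h were kept. Those not kept at 12 h include miR-10a-5p (0.823 with the thioacetamide vehicle), and with the 4,4'-methylenedianiline vehicle miR-98-5p (0.262) and miR-122-3p (interval from 0.865). The vehicle library, with 47122 reads, limits ratios of miRNAs under 20 reads there.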
